A study of Mus musculus with 23 samples.

Results

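The subject here is 4 mature miRNAs that lie in introns of the mouse gene Htr2c: miR-448-3p, miR-1298-5p, miR-1264-3p and miR-1912-3p. They were found by name in the count tables, which list 1915 mature miRNAs, and 4 of 4 were present. The libraries come from dissected brain tissue of C57BL/6 mice, 11 from Cdr1as knockout mice and 12 from wild type mice. Each genotype was sampled in 4 regions (cerebellum, cortex, hippocampus, olfactory bulb), at 3 libraries a group, except that knockout hippocampus had 2, which carry the replicate numbers 2 and 3. Cdr1as is a neuronal circular RNA that binds miR-7, and its locus is also on the X chromosome. Cdr1as itself is not read by miRNA libraries, so its loss was not checked in these samples. No age, sex, litter or treatment is given in the labels, nor whether the replicates of a group are different animals, so a p-value here speaks of variation from library to library, which may be technical.

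Htr2c encodes the serotonin 2C receptor, a G protein coupled receptor that is abundant in the epithelium of the choroid plexus and is also made by neurons. A miRNA inside an intron is usually cut from the same transcript as its host gene by Drosha and then by Dicer. The resulting duplex has a 5p and a 3p arm, and the arm that is kept in Argonaute, the guide, normally accumulates while its partner, the passenger, is degraded. Bases 2 to 8 of the guide are the seed that pairs with target mRNAs.

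In RefSeq annotation of GRCm38.p6 the 4 mature sequences are 22 bases each, on the plus strand of chromosome X. They are shown because the members of 1 locus need not share targets. The seed is in capitals.

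miR-1912-3p: cACAGAACaugcagugagaacu

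miR-1264-3p: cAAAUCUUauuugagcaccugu

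miR-1298-5p: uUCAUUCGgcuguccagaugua

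miR-448-3p: uUGCAUAUguaggaugucccau

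The 4 seeds differ from each other, and no other mature mouse miRNA in the RefSeq table has the seed of a member. The nearest other mature sequence to any of the 4, miR-489-5p for miR-448-3p, matched at 15 of 22 bases, so no near-identical copy in that table shares their reads. miR-1298 is the precursor with the most reads in both arms, and its hairpin is printed with the 5p and then the 3p arm in capitals.

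miR-1298 hairpin: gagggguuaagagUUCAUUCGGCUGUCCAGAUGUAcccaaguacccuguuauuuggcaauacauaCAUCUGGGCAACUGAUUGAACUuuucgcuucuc

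Htr2c spans chrX:146962513-147197277 on the plus strand of GRCm38, 234765 bases. The precursors stand in the order Mir764, Mir1912, Mir1264, Mir1298 and Mir448. By the GENCODE annotation, the first 4 are in intron 2 of transcript Htr2c-201, which has 6 exons, and Mir448 is in intron 4. Gaps between neighbouring precursors are 7075 bases from Mir764 to Mir1912, 1074 bases to Mir1264, 54219 bases to Mir1298 and 93208 bases to Mir448. Mature miR-1912-3p is at chrX:147009493-147009514, miR-1264-3p at chrX:147010655-147010676, miR-1298-5p at chrX:147064918-147064939 and miR-448-3p at chrX:147158281-147158302. The authors mapped to mm9, so these coordinates describe the locus and were not used to count reads.

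Total counts per library ran from 2328929 to 13070794. Levels are normalised CPM (read counts scaled to a common library total) on TMM-scaled library sizes, and 669 miRNAs passed the filter on low counts and were tested, including 4 of 4 members. Some libraries stood apart from the others of their region or group. Wild type cortex held 3676 to 6803 CPM of 8 miRNAs listed as olfactory bulb markers, against 141 to 445 CPM in knockout cortex, and 8 of 8 passed the test as lower in knockout cortex. In the cerebellum 8 of 8 of these were at lower fitted values in knockout, with 0 of 8 past the test. All 3 wild type cortex libraries carry that signal, so no cortex comparison can be made without it, and its part in the cortex values below was not tested. The markers of the labelled regions were present, with 219005 to 393987 CPM of the olfactory list in knockout olfactory bulb and 271210 to 300812 CPM in wild type olfactory bulb, and 1487 to 1504 CPM of 2 hindbrain miRNAs in knockout cerebellum and 1467 to 2142 CPM in wild type cerebellum.

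miR-1298-5p was the main product of the locus. Its 96204 counts over 23 libraries made up 72.4% of the counts of the 10 annotated arms, ahead of miR-1298-3p at 13.4% and miR-448-3p at 9.72%. miR-448-3p had 12923 counts, miR-1264-3p 751 and miR-1912-3p 651. miR-1264-3p was counted in 22 libraries and miR-1912-3p in 21, so both rest on few reads in the low libraries. The CPM of the 4 members are set side by side without a length correction. Ligation preferences of the library kit act on each sequence separately and were not measured.

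Levels were far from even within a group. In the cerebellum, miR-1298-5p was at 245, 925 and 497 CPM in the 3 knockout libraries, against 1310, 1706 and 27.7 CPM in the 3 wild type libraries. Wild type replicate 3 was thus the lowest of the 6, 47.3-fold and 61.5-fold below the other wild type libraries, and the genotypes overlapped. In the hippocampus it was at 102 and 76.9 CPM in knockout replicates 2 and 3, against 1816, 112 and 2385 CPM in wild type replicates 1, 2 and 3. The second wild type library lay close to the knockout libraries, with replicates 1 and 3 16.2-fold and 21.2-fold above it.

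Cortex and olfactory bulb libraries were closer together. Knockout cortex held 218, 157 and 368 CPM of miR-1298-5p and wild type cortex 309, 248 and 151 CPM. Knockout olfactory bulb held 55.3, 23.1 and 30.1 CPM and wild type olfactory bulb 24.9, 30.7 and 39.1 CPM. In both regions the genotypes overlapped, and every olfactory bulb library lay below every cortex library.

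miR-448-3p, which comes from a different intron, had the same high and low libraries. Its cerebellar level was 34.3, 149 and 78.1 CPM in knockout, against 209, 248 and 4.48 CPM in wild type. Its hippocampal level was 18.3 and 14.7 CPM in knockout, against 240, 17.8 and 254 CPM in wild type. Wild type cerebellum 3 and wild type hippocampus 2 again lay far below their groups, and knockout hippocampus overlapped wild type through hippocampus 2 only. Its range was 21.1 to 55.4 CPM in knockout cortex and 25.9 to 39.9 CPM in wild type cortex, and 1.69 to 8.42 CPM in knockout olfactory bulb and 2.57 to 4.76 CPM in wild type olfactory bulb.

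The scarcer members followed the same libraries. miR-1912-3p in hippocampus was at 0.601 and 0.162 CPM in knockout, against 12.7, 0.480 and 17.5 CPM in wild type. It had 0 counts in wild type cerebellum 3, which allows up to 0.373 CPM, against 8.62 and 9.72 CPM in the other wild type cerebellum libraries, with 1.46, 6.37 and 3.15 CPM in knockout. miR-1264-3p moved less, with 2.40 and 1.78 CPM in knockout hippocampus against 10.2, 2.80 and 12.3 CPM in wild type hippocampus. It was at 1.31 to 4.42 CPM in knockout cerebellum and at 0.995 to 7.34 CPM in wild type cerebellum, with its lowest value again in wild type replicate 3. In bulk tissue, fewer cells of a type and less RNA per cell cannot be told apart in any of these levels.

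**Figure D1:**
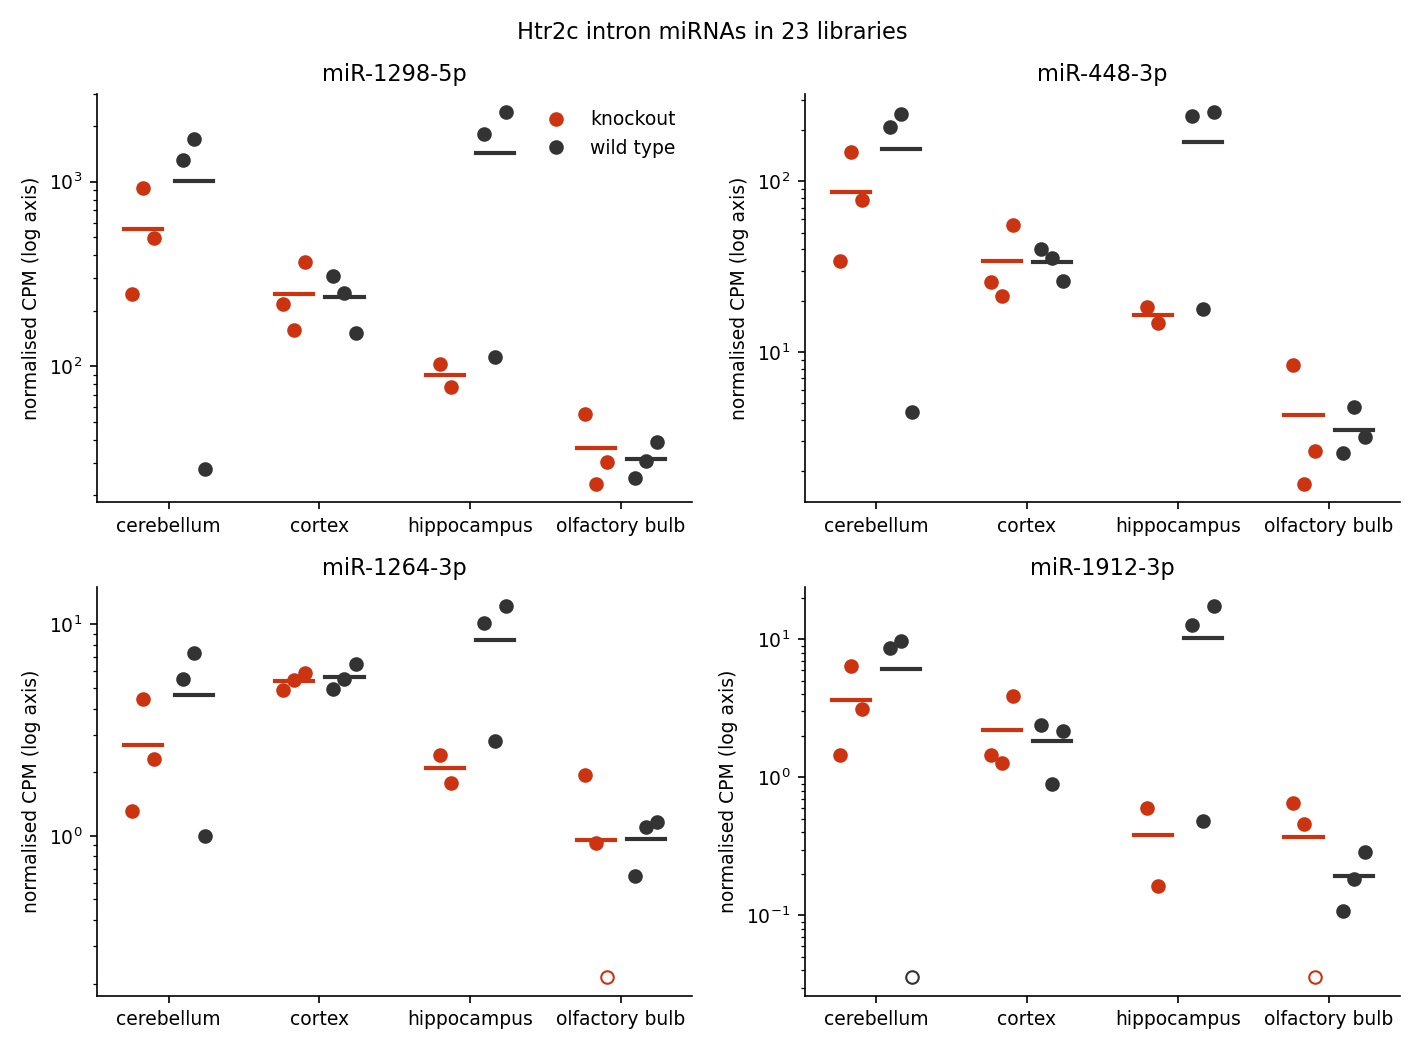
Normalised CPM (log axis) of each member in each library by region, with knockout left of wild type, 1 point a library and a bar at the group mean. Open points at the bottom mark libraries with 0 counts. Wild type cerebellum holds 1 library and wild type hippocampus 1 library far below the rest of their group in all 4 panels, at 27.7 and 112 CPM for miR-1298-5p.

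This spread within groups was among the widest in the data. The within-group SD of log2 CPM, with 0.5 added to each count, was 1.60 for miR-1298-5p and 1.58 for miR-448-3p. Of the 410 miRNAs with a mean of 10 CPM or more these rank first and second, and the median of the 410 is 0.215. miR-1912-3p had an SD of 1.98 and rank 4 among all 669 tested miRNAs, whose median was 0.304, and miR-1264-3p had an SD of 0.963 and rank 32. The last 2 rest on few counts.

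The members rose and fell together from library to library within groups. Each was expressed as its deviation from the mean log2 CPM of its own group, so that region and genotype could not produce the relation, and each of the 6 pairs was tested by a two-sided permutation within groups (100000 resamples, Benjamini-Hochberg adjusted over the 6 pairs). miR-448-3p and miR-1298-5p gave Pearson's r = 0.98 and Spearman's rho = 0.97 (adjusted permutation p = 0.00027 and 0.00036, n = 23). Between miR-1298-5p and miR-1912-3p they were r = 0.96 and rho = 0.87 (adjusted permutation p = 0.0014 and 0.0022). The highest r of the 6 thus belonged to a pair from separate introns. That pair also had the most counts, and the part of read depth in the order of r was not tested.

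Correlations with miR-1264-3p were lower. They were r = 0.85 with miR-1912-3p, 0.83 with miR-448-3p and 0.81 with miR-1298-5p, with rho of 0.86, 0.77 and 0.76. miR-448-3p and miR-1912-3p gave r = 0.94 and rho = 0.85. All 6 pairs passed by either measure, with adjusted permutation p from 0.00027 to 0.0071 for r and from 0.00036 to 0.0045 for rho.

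Much of this strength comes from the low libraries. Without wild type cerebellum 3 and wild type hippocampus 2, the 2 libraries farthest from the median of miR-448-3p and of miR-1298-5p, r was 0.91 between these 2 members (adjusted permutation p = 0.0018). With miR-1264-3p, r fell to 0.61 for miR-448-3p and to 0.56 for miR-1298-5p, and neither passed (adjusted permutation p = 0.163 and 0.105). With miR-1912-3p, r was 0.65 for miR-448-3p and 0.71 for miR-1298-5p, and both passed (adjusted permutation p = 0.0339 and 0.0221). For miR-1264-3p with miR-1912-3p the farthest libraries were wild type cerebellum 3 and knockout olfactory bulb 3, and r was 0.87 without them (adjusted permutation p = 0.00231). Thus 4 of 6 pairs passed, and the relations of miR-1264-3p with miR-448-3p and miR-1298-5p rest on those libraries. Without the cerebellum libraries 4 of 6 passed and without the hippocampus libraries 6 of 6.

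The size of the swings differed between members. For each log2 unit of deviation in miR-1298-5p, the fitted slope was 0.97 for miR-448-3p, 1.19 for miR-1912-3p and 0.49 for miR-1264-3p. The 6 other arms of the locus had slopes of 0.72 for miR-1264-5p, 0.52 for miR-1912-5p, 0.47 for miR-1298-3p, 0.38 for miR-764-3p, 0.38 for miR-764-5p and 0.28 for miR-448-5p. The slope of miR-1264-3p thus lay within the range of the other arms and below that of its partner arm. miR-1264-5p had 264 counts and miR-1912-5p 45 counts in all, so their slopes rest on few reads. In wild type cerebellum 3, the lowest library, miR-1912-3p, miR-1264-5p and miR-1912-5p had 0 counts. Their deviations there thus depend on the 0.5 added to each count. miR-1912-5p was counted in only 12 of the 23 libraries. The arms of miR-448 differed in slope, 0.97 for miR-448-3p and 0.28 for miR-448-5p. These slopes are descriptions over 23 libraries that share their scaling.

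**Figure D2:**
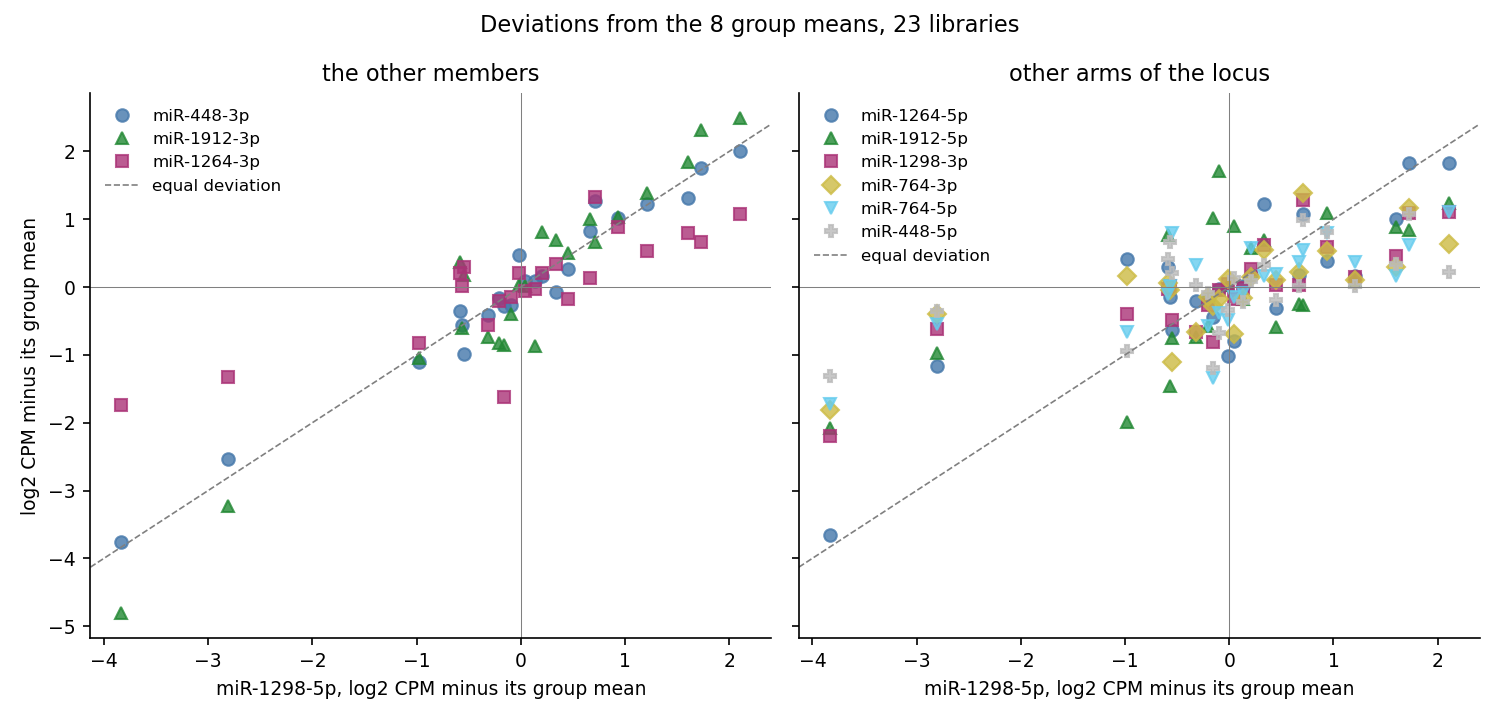
Deviation of log2 CPM from the group mean, with miR-1298-5p on the horizontal axis and other arms of the Htr2c introns on the vertical axis, 1 point a library (n = 23). The left panel shows the other members and the right panel the 6 other arms, and the dashed line marks equal deviation. miR-448-3p follows the line with a slope of 0.97, miR-1264-3p has a slope of 0.49, and the 6 other arms have slopes from 0.28 to 0.72.

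The 2 arms of miR-1298 did not keep a constant ratio. In the hippocampus the count of miR-1298-5p over that of miR-1298-3p was 0.972 and 1.05 in knockout, against 9.33, 0.982 and 9.86 in wild type. In the cerebellum the ratio was 6.41, 12.2 and 11.2 in knockout, against 10.1, 13.0 and 2.08 in wild type. The low wild type libraries of both regions therefore had low ratios as well. Of all reads of the precursor in wild type hippocampus 2, the 5p arm held 49.6% (95% Wilson interval 47.7% to 51.4%), against 90.8% (90.5% to 91.1%) in wild type hippocampus 3, with intervals that cover counting error only.

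Cortex and olfactory bulb had low ratios throughout. The ratio ran from 1.26 to 2.90 in knockout cortex and from 1.11 to 2.20 in wild type cortex. It ran from 1.14 to 2.71 in knockout olfactory bulb and from 1.50 to 2.32 in wild type olfactory bulb. Over the 23 libraries the ratio thus covered 0.972 to 13.0, and the 7 libraries above 6 were 3 knockout cerebellum, 2 wild type cerebellum and 2 wild type hippocampus libraries.

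miR-448 showed a like pattern between its arms. The count of miR-448-3p over miR-448-5p was 9.84 and 9.05 in knockout hippocampus, against 75.4, 7.16 and 63.4 in wild type hippocampus. In the cerebellum it was 58.8, 70 and 58.6 in knockout, against 59.7, 129 and 7.20 in wild type. In the cortex it ran from 4.44 to 18.9 in knockout and from 4.77 to 11.3 in wild type. The miR-448-5p counts behind these ratios were as low as 4 in the cerebellum, so single ratios carry wide counting error.

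The ratio of miR-1298-3p to miR-764-3p, from precursors in the same intron, stayed between 3.50 and 9.44 in the 23 libraries, whereas miR-1298-5p over miR-764-3p ran from 4.33 to 112. The count of miR-1264-3p over miR-1264-5p ran from 0.900 to 6.50 in the 20 libraries with a count of miR-1264-5p. Wild type cerebellum 3 is not among them, with 8 counts of miR-1264-3p and 0 of miR-1264-5p. Wild type hippocampus 3 exceeded wild type hippocampus 2 by 36.5-fold in miR-1912-3p, 21.2-fold in miR-1298-5p, 14.3-fold in miR-448-3p and 4.38-fold in miR-1264-3p. The same pair of libraries differed by 4.60-fold in miR-1264-5p, 2.12-fold in miR-1298-3p, 1.64-fold in miR-764-5p, 1.63-fold in miR-764-3p and 1.62-fold in miR-448-5p. So 3 members had the widest differences, and miR-1264-3p lay beside its partner arm. Between wild type cerebellum 1 and wild type cerebellum 3 the difference was 46.7-fold in miR-448-3p and 47.3-fold in miR-1298-5p, against 9.75-fold in miR-1298-3p, 8.07-fold in miR-764-3p, 5.63-fold in miR-448-5p and 5.55-fold in miR-1264-3p. There miR-1264-3p lay below the other arms given, close to miR-448-5p. Wild type cerebellum 2 over 3 gave another order, 9.88-fold in miR-1298-3p, 7.38-fold in miR-1264-3p, 5.575-fold in miR-764-3p and 3.09-fold in miR-448-5p. In wild type cerebellum 3 these folds rest on only 8 counts of miR-1264-3p and 5 of miR-448-5p. These libraries were chosen after their values were seen, and the differences were not tested.

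**Figure D3:**
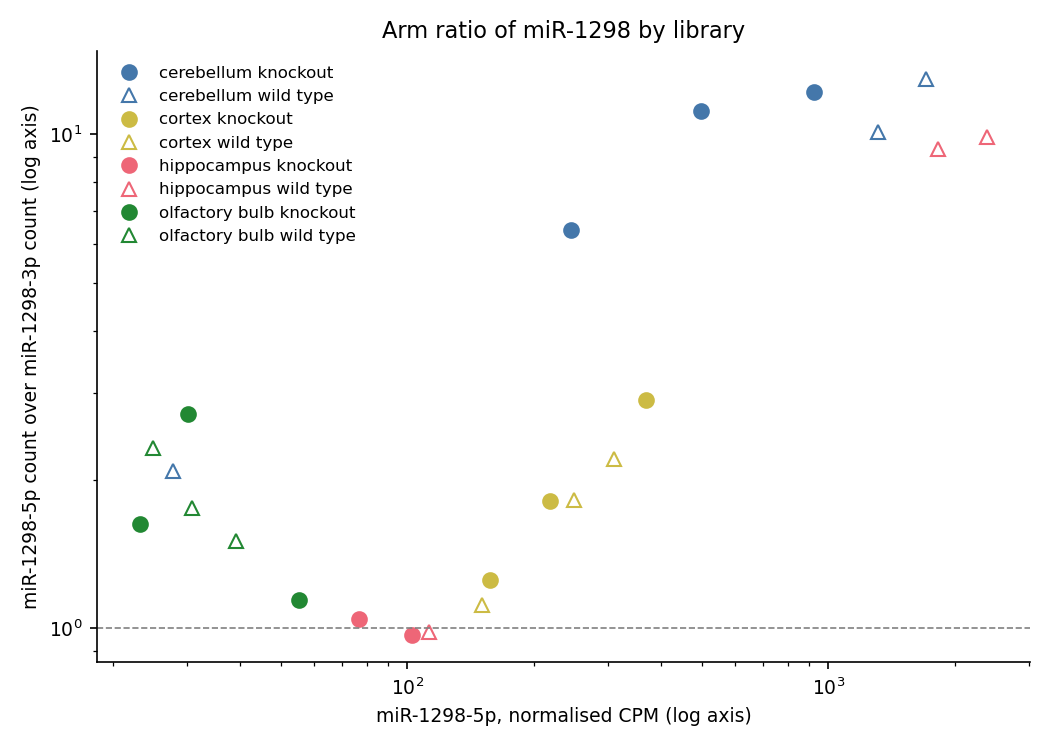
Count of miR-1298-5p over count of miR-1298-3p (log axis) against the normalised CPM of miR-1298-5p (log axis), 1 point a library, with filled circles for knockout and open triangles for wild type. The dashed line marks equal counts. Hippocampus libraries fall into 2 sets, the 2 knockout libraries and wild type replicate 2 near 1 and the other 2 wild type libraries at 9.33 and 9.86.

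Comparing the genotypes asks whether loss of Cdr1as goes with a change in these miRNAs. No member passed in any region, with 0 of 4 called in each (edgeR's quasi-likelihood test, Benjamini-Hochberg adjusted over 669 miRNAs, threshold 0.05). The largest differences were in the hippocampus, where 4 of 4 members had an unadjusted p under 0.05 and a lower fitted level in knockout, as 39 of 669 miRNAs had in either direction, and where 0% of all tested miRNAs were called. The log2 fold change was -4.59 for miR-1912-3p (SE 1.23, adjusted p = 0.298 in edgeR) and -4.00 for miR-1298-5p (SE 1.18, adjusted p = 0.367). miR-448-3p differed by -3.37 (SE 1.11, edgeR adjusted p = 0.454) and miR-1264-3p by -1.98 (SE 0.59, adjusted p = 0.367). The median over the members was -3.68, against 0 over all tested miRNAs.

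The hippocampal calls depended on single libraries and on the fit. Without wild type replicate 2, miR-1298-5p differed by -4.54 (edgeR adjusted p = 0.0305), miR-1264-3p by -2.40 (adjusted p = 0.0256) and miR-1912-3p by -5.16 (adjusted p = 0.0131), so that 3 of 4 members passed and 8 miRNAs in all. Leaving out wild type cerebellum 3, a library of another region that enters the shared estimate of spread, gave 2 of 4. With all libraries kept, DESeq2 called 1 of 4. Without the filter on low counts, edgeR called 4 of 4, among 20 of 1459 miRNAs. No share over all miRNAs is given for DESeq2 or for the fit without wild type cerebellum 3. Their counts of members thus stand without one. The groups did not overlap for miR-1298-5p and miR-1264-3p, 2 of 4 members, where 16.9% of all tested miRNAs did not overlap.

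Most miRNAs listed as markers of choroid plexus and ciliated ependyma moved with these hippocampal differences. Of 9 listed, 9 were tested and none was at 0 in all libraries. Their summed level was 3193 and 3498 CPM in knockout hippocampus, against 8606, 2964 and 10802 CPM in wild type hippocampus. Wild type replicate 2, low in the members, was also the lowest here. In knockout, 7 of 9 had lower fitted values with a median of -1.09, and 0 of 9 passed the test. Their part in the members' differences was not tested. The lists for neurons, hindbrain, oligodendrocytes, endothelium and mural cells, red blood cells, and microglia and leukocytes had 0 calls in the 5 knockout comparisons. At most 2.09% of all tested miRNAs were called in any of these, and 0% in the hippocampus, so 0 calls say little. In the hippocampus the median log2 fold changes of these lists, in that order, were -0.03, 0.27, 0.08, -0.007, 0.03 and 0.13. That of the olfactory bulb list was -0.38.

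The cerebellum had lower fitted member levels in knockout with no call. miR-1298-5p differed by -0.87 (SE 0.89) and miR-448-3p by -0.82 (SE 0.86), each with an adjusted p of 1 in edgeR, and 0.149% of all miRNAs were called. The median over the members was -0.83, against -0.003 over all miRNAs. Without wild type replicate 3 the difference in miR-1298-5p was -1.44 (edgeR adjusted p = 1), and no member passed. Limma-voom gave positive differences for 3 of 4 members, 0.28 for miR-1298-5p. No member separated the genotypes, where 7.03% of all miRNAs did. The summed choroid plexus and ependyma miRNAs were at 10133 to 13340 CPM in knockout and at 11173 to 16837 CPM in wild type, with wild type replicate 3 at 11173 CPM.

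Cortex and olfactory bulb gave differences within the spread between libraries. In the cortex miR-1298-5p differed by 0.06 (95% interval -1.79 to 1.92) and miR-448-3p by -0.02 (-1.90 to 1.86), with an edgeR adjusted p of 0.997 for both, where 2.09% of all miRNAs were called. These intervals are wide and take in both directions. In the olfactory bulb miR-1298-5p differed by 0.22 (-1.80 to 2.24) and miR-448-3p by 0.34 (-2.44 to 3.11), with an edgeR adjusted p of 1 for both, where 0.149% were called. In cerebellum, cortex and olfactory bulb alike 0 of 4 members had an unadjusted p under 0.05 in edgeR. Of all 669 miRNAs, 13, 31 and 20 had one. DESeq2 and limma-voom called 0 of 4 in each. No member separated the genotypes in cortex or olfactory bulb, against 7.62% of all miRNAs in the cortex and 6.43% in the olfactory bulb. No fold is given for miR-1912-3p in the olfactory bulb, where each library had at most 3 counts.

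Averaged over the 4 regions, miR-1298-5p differed by -1.15 (SE 0.48, adjusted p = 0.675 in edgeR). It alone of the 4 had an unadjusted p under 0.05, as 39 of 669 miRNAs had in either direction. Again 0 of 4 passed, where 1.49% of all miRNAs did. Whether the genotype difference itself varied between regions was tested by the interaction. It was not called for any member (edgeR adjusted p = 0.996 for miR-1298-5p), where 1.64% of all miRNAs were called. An unadjusted p under 0.05 was found for 2 of 4 members and for 26 of 669 miRNAs. The hippocampal difference is thus not shown to be particular to that region. Without the filter on low counts edgeR called 4 of 4 members in the interaction, among 31 of 1459 miRNAs, and 2 of 4 in the average and in the cerebellum.

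**Figure D4:**
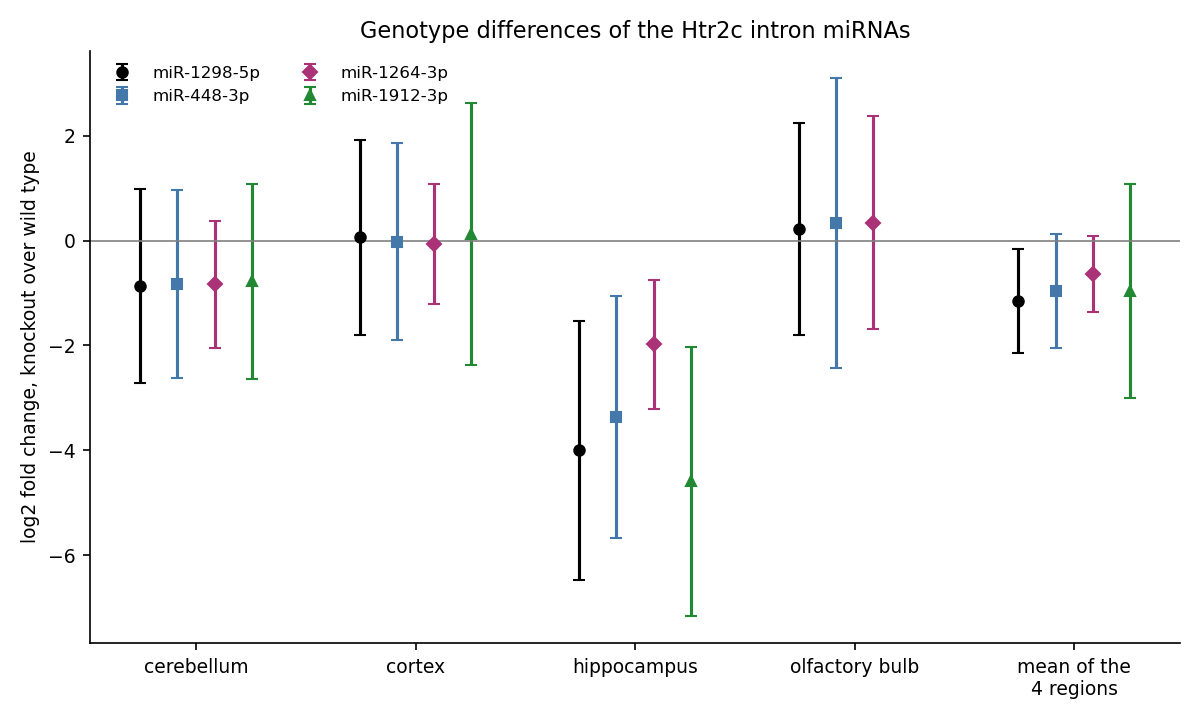
Log2 fold change of knockout over wild type for each member in each region and for the mean of the 4 regions, with 95% intervals from the edgeR fit. The hippocampus intervals lie below 0, at -4.00 for miR-1298-5p, although no member passes adjustment over 669 miRNAs. miR-1912-3p is not drawn in the olfactory bulb, where each library had at most 3 counts.

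Among wild type libraries the mean levels of miR-448-3p, miR-1298-5p and miR-1912-3p ran in the order hippocampus, cerebellum, cortex and olfactory bulb. For miR-1298-5p the means were 1438 ± 1183, 1015 ± 877, 236 ± 80.1 and 31.6 ± 7.12 CPM (SD, n = 3 each). miR-1264-3p had the order hippocampus, cortex, cerebellum and olfactory bulb, at 8.42 ± 4.98, 5.65 ± 0.793, 4.62 ± 3.27 and 0.966 ± 0.281 CPM. Among knockout libraries the hippocampus lay below both cerebellum and cortex and above the olfactory bulb for all 4 members, although for miR-1912-3p hippocampus and olfactory bulb averaged 0.382 and 0.370 CPM, within their spread. In knockout, miR-1298-5p averaged 556 ± 344 CPM in cerebellum, 248 ± 109 CPM in cortex, 89.7 ± 18.1 CPM in hippocampus (n = 2) and 36.2 ± 16.9 CPM in olfactory bulb.

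The olfactory bulb had the lowest mean of each member. Against it, 4 of 4 members were called higher in wild type cerebellum, 3 of 4 in cortex and 4 of 4 in hippocampus (edgeR, Benjamini-Hochberg adjusted p under 0.05), where 55.5%, 53.2% and 53.4% of all miRNAs were called in either direction. The 5 tested other arms of the locus, those of miR-448, miR-1298, miR-1264 and miR-764, were called higher in each of these 3 comparisons. miR-1298-5p was higher by 5.02 on the log2 scale in cerebellum (SE 1.06, edgeR adjusted p = 0.000464), 2.92 in cortex (SE 0.98, adjusted p = 0.0158) and 5.53 in hippocampus (SE 1.09, adjusted p = 0.000226). The cerebellum and olfactory bulb groups nevertheless overlapped in every member. Wild type cerebellum 3, at 27.7 CPM of miR-1298-5p and 4.48 CPM of miR-448-3p, lay within the olfactory bulb ranges of 24.9 to 39.1 CPM and 2.57 to 4.76 CPM. miR-448-3p was higher by 5.48 in cerebellum, 3.29 in cortex and 5.63 in hippocampus. The differences of miR-1264-3p were smaller in cerebellum and hippocampus, at 2.35 and 3.20, with 2.63 in cortex.

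miR-1912-3p had only 3 counts in the whole wild type olfactory bulb group. Ratios of summed counts to this group were taken on TMM-scaled library sizes. They were 37.5 (95% exact counting interval 12.6 to 184) for cerebellum, 10.6 (3.36 to 53.5) for cortex and 60.6 (20.6 to 295) for hippocampus. The cortex difference was not called (edgeR adjusted p = 0.142). Leaving out olfactory bulb replicate 1 lowered the number of members called to 2 for cerebellum and to 1 for cortex. For cortex, all 4 members were called with library size only as scaling, without the filter on low counts and with DESeq2. Limma-voom called 1 of 4 for cerebellum, 1 of 4 for cortex and 3 of 4 for hippocampus.

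Few members were called among the other 3 regions. Cerebellum was higher than cortex in miR-448-3p by 2.19 (SE 0.90, adjusted p = 0.0405 in edgeR), 1 of 4 members called where 62.6% of all miRNAs were. That call was lost with library size only as scaling, with limma-voom and with the replicate block. It was also lost without wild type cerebellum 1 or 2, without any 1 of the wild type cortex libraries and without knockout hippocampus 3. Without wild type cerebellum 3, 3 of 4 members were called, with miR-1298-5p higher by 2.67 (edgeR adjusted p = 0.00331). The other arms called between these regions went the other way, miR-764-3p at -1.33 (edgeR adjusted p = 0.0204) and miR-448-5p at -1.04 (adjusted p = 0.0496), lower in cerebellum than in cortex. So miR-448-3p and miR-448-5p, cut from 1 precursor, were called in opposite directions between cerebellum and cortex, each near the threshold. The miR-448-5p call rests on 48 counts in wild type cerebellum and 91 in wild type cortex, and these groups overlapped. Calls of the other arms were not checked with other fits or with libraries left out.

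Between cerebellum and hippocampus 0 of 4 members were called, where 57.7% of all miRNAs were. Also 0 of 4 had an unadjusted p under 0.05, where 415 of 669 miRNAs did, with miR-1298-5p at -0.50 (95% interval -2.34 to 1.34). Here miR-764-3p at -1.36 (edgeR adjusted p = 0.0187) and miR-764-5p at -1.27 (adjusted p = 0.0203) were called lower in cerebellum. Cortex and hippocampus also gave 0 of 4 where 20.0% of all miRNAs were called. Yet 3 of 4 members had an unadjusted p under 0.05, as 200 of 669 miRNAs had in either direction. These 3 were lower in cortex, miR-1298-5p by -2.61 (edgeR adjusted p = 0.0549). Without wild type hippocampus 2, or without wild type cerebellum 3, 3 of 4 were called between cortex and hippocampus, and without wild type hippocampus 2 also 1 of 4 between cerebellum and hippocampus. A test of any difference among the 4 wild type regions called 4 of 4 members, where 80.0% of all miRNAs were called.

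Ratios between members were compared too, since they do not depend on library scaling. miR-1912-3p was left out because its mean count was under 5 in the olfactory bulb. Of 12 comparisons of 1 wild type region with the other 3, 0 passed an exact permutation test after adjustment. The smallest unadjusted p was 0.0318, for a lower ratio of miR-448-3p to miR-1264-3p in the olfactory bulb, at a mean log2 ratio of 1.77, against 3.51 in the other regions (adjusted p = 0.355, exact, 220 arrangements). Knockout minus wild type was 0.06 for miR-448-3p over miR-1298-5p, 0.05 for miR-448-3p over miR-1264-3p and -0.01 for miR-1298-5p over miR-1264-3p, and 0 of 3 passed (two-sided exact permutation within regions, p from 0.656 to 0.980). The means over regions take in opposite values. In the cerebellum, knockout minus wild type was 0.81 for miR-1298-5p over miR-1264-3p and 0.78 for miR-448-3p over miR-1264-3p, and in the hippocampus -1.39 and -0.89. These regional values were not tested. The log2 ratio of miR-448-3p to miR-1298-5p had group means from -3.27 in knockout olfactory bulb to -2.43 in knockout hippocampus, a narrow range beside that of either level.

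The 5 miRNAs whose log2 CPM followed the mean of the standardised members most closely over the 23 libraries were miR-34c-5p (r = 0.87), miR-34c-3p (0.85), miR-34b-3p (0.83), miR-34b-5p (0.83) and miR-3552 (0.81). The same 5 came first after group means were removed, with miR-34b-5p at 0.86 and miR-34c-5p at 0.85. The miR-34b and miR-34c precursors are made from 1 transcript and are abundant in cells with motile cilia, and their 4 arms belong to the choroid plexus and ependyma list. These r are descriptions over libraries that share region and scaling.

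In the hippocampus miR-34c-5p was at 686 and 870 CPM in knockout, against 2185, 671 and 3175 CPM in wild type. In the cerebellum it was at 698, 1502 and 878 CPM in knockout, against 1906, 2073 and 796 CPM in wild type. The libraries that were low in the members were low in miR-34c-5p as well, by smaller factors. miR-449a-5p and miR-449c-5p, also on the list, did not follow this pattern. In hippocampus miR-449a-5p was at 7.45 and 9.65 CPM in knockout, against 6.71 to 7.76 CPM in wild type, highest in replicate 2. In wild type cerebellum it was at 15.5, 13.2 and 19.1 CPM, highest in replicate 3. miR-449c-5p, on few counts, was at 1.02 and 0.973 CPM in knockout hippocampus, against 0.425 to 0.96 CPM in wild type. miR-204-5p, a miRNA of choroid plexus epithelium, was at 2429 and 2554 CPM in knockout hippocampus, against 6244, 2225 and 7391 CPM in wild type hippocampus. In wild type cerebellum it was at 11171, 14514 and 10239 CPM, so replicate 3 was the lowest by a small margin, while its miR-1298-5p was 47.3-fold and 61.5-fold lower than that of the others.

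Members of the choroid plexus and ependyma list ran in both directions between cortex and olfactory bulb. In the olfactory bulb their summed level was 4331 to 4853 CPM in knockout and 4053 to 5154 CPM in wild type, above the cortex at 1815 to 2970 CPM in knockout and 1929 to 2720 CPM in wild type. miR-204-5p made up most of that sum, at 4020 to 4509 CPM in knockout olfactory bulb and 3745 to 4874 CPM in wild type olfactory bulb. The miR-34b and miR-34c arms had the reverse order, as miR-1298-5p did. miR-34c-5p was at 240 to 268 CPM in knockout olfactory bulb and 201 to 228 CPM in wild type olfactory bulb, below the cortex at 478 to 914 CPM in knockout and 624 to 820 CPM in wild type. Of the 9 listed, 4 were called higher in wild type cortex than in wild type olfactory bulb, and 4 were called lower. The 4 called higher were the arms of miR-34b and miR-34c. miR-449a-5p was at 21.9 to 33.5 CPM in knockout olfactory bulb and 22.8 to 28.5 CPM in wild type olfactory bulb. In cortex it was at 9.38 to 11.1 CPM in knockout and 6.5 to 10.3 CPM in wild type. The sum of 5 neuron miRNAs was 189964 to 219241 CPM in knockout olfactory bulb and 203608 to 207198 CPM in wild type olfactory bulb. In hippocampus that sum was 141554 to 145208 CPM in knockout and 116783 to 143725 CPM in wild type. Singly these neuron miRNAs split, with 2 of 5 called higher in wild type hippocampus than in wild type olfactory bulb and 3 of 5 called lower.

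**Figure D5:**
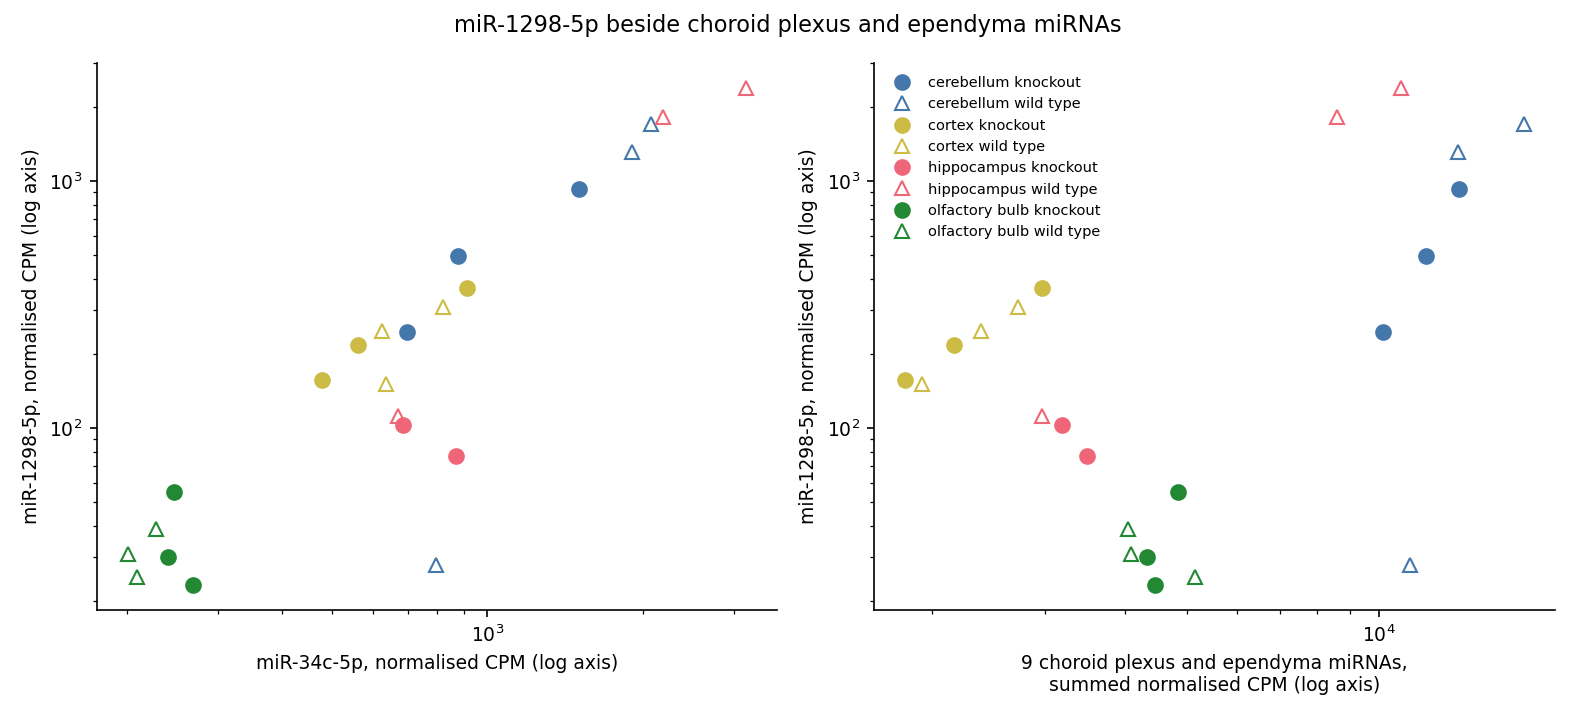
Normalised CPM of miR-1298-5p against miR-34c-5p (left) and against the summed CPM of 9 choroid plexus and ependyma miRNAs (right), log axes, 1 point a library, with filled circles for knockout and open triangles for wild type. Wild type hippocampus 2 lies with the 2 knockout hippocampus libraries in both panels. Wild type cerebellum 3, at 27.7 CPM of miR-1298-5p, lies below the other cerebellum libraries although its summed level is 11173 CPM.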

How the data were processed

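Each of the 23 libraries has its own table of raw counts for mature miRNAs, deposited by the authors. Per the labels' protocols, TRIZOL was used for the RNA and a TruSeq Small RNA kit for the libraries. The submitters' processing notes give mm9 as the build, and its aligner, counter, miRNA annotation and rule for reads with several matches were not given in the sources used here. Counts were analysed with edgeR 4.0.16 in R 4.3.3: filterByExpr (minimum count 10, minimum total 15) kept 669 of 1459 miRNAs with a count, TMM scaling, and 1 quasi-likelihood fit of 8 group means, Benjamini-Hochberg adjusted over the 669 with a threshold of 0.05. Standard errors were taken from the fitted difference and its F statistic. Log2 CPM has 0.5 added to each count. Alternatives were RLE, upper quartile and library size scaling, no filter, DESeq2 1.42.0, limma-voom (limma 3.58.1), a replicate block and leaving out each library. Replicates of a group differed by more than sampling noise, with chi-square over degrees of freedom from 28.4 to 242 over 22 pairs. The members and marker lists were chosen with earlier results of these data known. Named miRNAs are the members, the other arms of the locus, the 5 most alike by r, and list examples. Sequences and mature positions are from RefSeq, which held 4 of 4 members and 4 of 6 other arms. Precursor positions and transcripts are from GENCODE. Without molecular identifiers PCR copies count as reads, so intervals and floors cover counting error only, and a floor is 3 counts.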

Additional observations from a re-analysis of the deposited data

How the results depend on the processing

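Depth limits miR-1264-3p and miR-1912-3p, which reached 0 counts in some libraries, and miR-1912-3p could not enter the ratio tests. Of the alternatives in the knockout comparisons, no filter on low counts called 2 members in cerebellum, 4 in hippocampus, 2 in the mean of the 4 regions and 4 in the interaction, and DESeq2 called 1 in hippocampus, where 0 were called; leaving out 1 library gave 0 to 3 in hippocampus and 0 in the others. Between wild type cerebellum and cortex, where 1 was called, the count was 3 with upper quartile scaling and without the filter, 2 with DESeq2, 0 with library size only, limma-voom and the replicate block, and 0 to 3 with 1 library left out. Cerebellum against hippocampus gave 1 with library size only, 3 without the filter and 0 to 1 with 1 library left out. Cortex against hippocampus gave 3 with upper quartile scaling, 3 without the filter, 1 with DESeq2 and 0 to 3 with 1 library left out. Against the olfactory bulb limma-voom called 1 for cerebellum and 1 for cortex, library size only, no filter and DESeq2 called 4 for cortex, where 3 were called, and leaving out 1 library gave 2 to 4 and 1 to 3. Any difference between wild type regions had 2 calls with limma-voom. Co-variation passed in 4 of 6 pairs without the 2 farthest libraries and, in a choice made after seeing the data, without the cerebellum libraries. The causes of these changes were not tested. Except where stated, members called under an alternative are counted without the share of all miRNAs called in that fit.

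Reversed signs were of uncalled differences. In cerebellum, knockout over wild type was 0.24 for miR-448-3p, 0.28 for miR-1298-5p and 0.80 for miR-1912-3p with limma-voom. In cortex it was 0.14 (upper quartile) and 0.0013 (DESeq2) for miR-448-3p and 0.063 (upper quartile) for miR-1264-3p, and cerebellum over cortex was 0.064 (upper quartile) for miR-1264-3p. With 1 library left out, cortex differences ran from -0.52 to 0.24 for miR-448-3p, -0.33 to 0.31 for miR-1298-5p, -0.16 to 0.039 for miR-1264-3p and -0.39 to 0.45 for miR-1912-3p. Olfactory bulb differences ran from -0.81 to 0.86 for miR-448-3p, -0.26 to 0.48 for miR-1298-5p and -0.36 to 0.60 for miR-1264-3p. Cerebellum over cortex ran from -0.81 to 0.19 for miR-1264-3p, and cerebellum over hippocampus from -0.68 to 0.42 for miR-448-3p and -1.10 to 0.083 for miR-1298-5p.

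Equal replicate numbers were not taken as pairs, since deviations did not correlate above 0.1 in every pair: they did in 3 of 11 same-region pairs with equal numbers, against 5 of 22 with other numbers, and in 10 of 33 same-genotype pairs with equal numbers, against 9 of 66. The labels do not say whether equal numbers share an animal, and a rule that asks for every pair cannot show that they do not. The replicate block called 0 members in each knockout comparison, and it changed no call other than that of cerebellum against cortex, which became 0. In the ratio tests, exchange within same-numbered pairs called 0 of 3.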
